A study of Rattus with 8 samples.

Results

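Cultured rat neural stem cells were treated with ultrasound or cultured with a piezoelectric material, and their messenger RNA was sequenced on day 5. The comparison described here sets the 2 libraries of cells treated with ultrasound (ultrasound) against the 2 libraries of cells cultured with the piezoelectric material (piezoelectric), for every gene counted. These are 4 of the 8 libraries of the series. The other groups, each of 2 libraries, were cultured with piezoelectric nanostickers (nanosticker) or left without treatment (control). They entered the fit through the gene filter, the scaling and the shared estimate of spread, and their levels are given as a description. All cells of the series are rat neural stem cells at day 5, and the labels give no strain, age, intensity of the ultrasound or composition of the material. The series title speaks of nanostickers that ultrasound activates, but exposure of the nanosticker or piezoelectric cultures to ultrasound is not given by the labels. Whether the 2 libraries of a group stem from independent cultures is not stated either, so p-values reflect the spread between libraries alone, which may be technical.

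Neural stem cells divide and give rise to neurons, astrocytes and oligodendrocytes. Ultrasound is a pressure wave that deforms membranes and the cytoskeleton, and cells sense such forces through mechanically gated ion channels, integrins and the YAP coactivator. A piezoelectric material turns deformation into surface charge. Glia respond to injury and to inflammatory cytokines through NF-kappa B, STAT and interferon signalling, which switch on chemokines, antiviral genes and the genes of reactive astrocytes.

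Ultrasound libraries held 15516250 and 15628667 counts and piezoelectric libraries 15481036 and 15566526. Of 18374 genes, 14336 had enough counts to be tested with edgeR's quasi-likelihood test, and a gene was called at a Benjamini-Hochberg adjusted p below 0.05 over all of them. The cells carried markers of several neural types. In TPM, a level scaled for transcript length and library total, the astrocyte gene Gfap stood at 1597 and 1387 in ultrasound libraries and at 1648 and 1497 in piezoelectric libraries, and the myelin gene Mbp at 4436 and 4407 against 3219 and 3257. The stem cell gene Sox2 stood at 193 and 186 TPM against 216 and 215 TPM. The defining microglial gene Csf1r stood at 1.90 and 1.47 against 1.11 and 1.23 TPM, and the endothelial gene Cldn5 at 0 and 0.08 against 0 and 0 TPM. In bulk RNA, fewer cells of a type and less RNA per cell cannot be told apart.

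Every called gene of the chemokine (7 of 10 tested), interferon-stimulated (19 of 33) and reactive astrocyte (14 of 23) lists was higher in ultrasound libraries. Of 21 myelin genes tested, 10 of the 12 called were higher. Of 17 genes of resting astrocytes, all 6 called were lower, as were all 3 called of 15 genes of oligodendrocyte precursors and premyelinating cells. Of 22 genes of bone morphogenetic protein (BMP) and TGF-beta signalling, 5 of the 7 called were lower. Most interferon-stimulated and core astrocyte calls ended when any 1 of the 4 libraries compared was left out, as given below. Some calls of the other lists did too, but the 3 precursor calls held. Of the 14336 genes, 502 were called, which is 3.5% of those tested. Of these, 305 were higher in ultrasound libraries (2.13% of genes tested) and 197 lower (1.37%). At these shares, 0 or 1 call in a list of the sizes used here says little about that list. Most differences were modest. The median size of a called log2 fold change was 0.53 among the higher genes and 0.42 among the lower ones, and 42 higher and 20 lower genes differed at least 2-fold. Both ultrasound libraries lay outside the piezoelectric ones for each called gene, but so they did for 48.5% of all genes tested. The median log2 fold change of all genes was 0.0010. Euclidean distances of log2 CPM (counts scaled to a common library total) ran from 48.8 to 50.1 between ultrasound and piezoelectric libraries. They were 45.1 between the ultrasound libraries, 44.2 between the piezoelectric, 45.3 between the nanosticker and 53.5 between the control libraries. The control libraries thus lay farther apart than any ultrasound library from a piezoelectric one.

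The number of calls depended on the libraries fitted. With either control library left out, 1192 and 1202 genes were called, and 1207 without both. With either nanosticker library left out the counts were 347 and 348. Leaving out 1 of the 4 libraries compared gave 156 without ultrasound replicate 1, 174 without ultrasound replicate 2, 256 without piezoelectric replicate 1 and 151 without piezoelectric replicate 2. Between 149 and 240 of the 502 calls remained in these last fits, none with its direction turned. Fold changes also ran weakly along transcript length (Spearman -0.13 over 13755 genes, which are not replicates). The difference between the control libraries did so more strongly (-0.46, replicate 1 minus replicate 2). With each library's length trend removed, 846 genes were called.

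**Figure D1:**
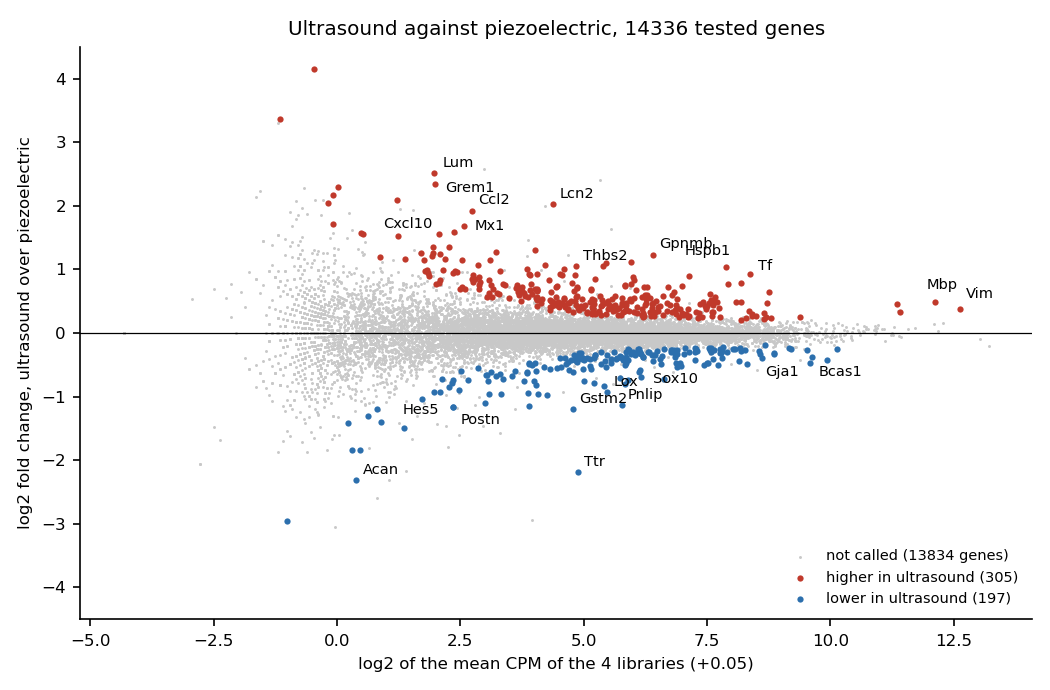
Each point is 1 of 14336 tested genes. The x axis is the log2 of its mean CPM over the 4 libraries (plus 0.05), and the y axis its log2 fold change, ultrasound over piezoelectric. Red and blue points are the 305 higher and 197 lower called genes, grey points the rest, and 24 genes, 4 of them called, lie outside the plotted range. Called genes of high level, such as Mbp and Bcas1, have small fold changes, and those above 2 on the log2 scale include Lum and Lcn2.

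**Figure D2:**
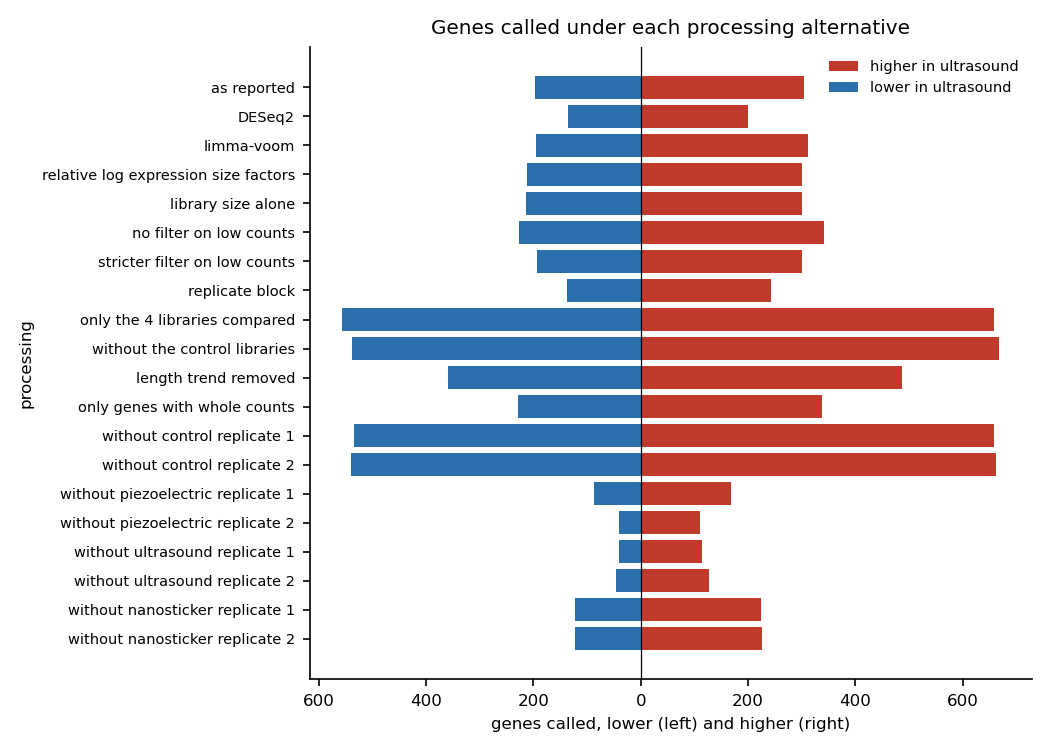
Genes called higher (right, red) and lower (left, blue) in ultrasound libraries under each way of processing, with the counts as reported at the top. Bars are longest in the fit of the 4 libraries alone (658 higher and 556 lower) and without both control libraries (668 higher and 539 lower), and shortest when 1 of the 4 libraries compared is left out.

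Chemokines are secreted proteins that attract leukocytes. Of 20 chemokine ligand genes counted, 10 had enough counts to be tested. Of these, 7 were higher in ultrasound libraries and 0 lower, with a median log2 fold change of 1.75 over the 10. The count filter can pass a gene on the counts of a single group, so share and median depend on it. With the stricter filter 8 were tested and 6 were higher, with a median of 1.24. Ccl2, the monocyte attractant, had 9.50 and 11.4 CPM in ultrasound libraries, against 2.76 and 2.74 CPM in piezoelectric libraries. The log2 fold change was 1.93 ± 0.16 (SE), adjusted p = 5.52e-05. Nanosticker libraries stood as high, at 10.6 and 10.4 CPM, and control libraries at 3.42 and 3.28 CPM. Ccl2 is on chromosome 10, plus strand, 69412065 to 69413863 (gene ID 24770) of the Rnor 6.0 build, in which all coordinates are given.

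Cxcl10, an interferon-induced attractant of T cells, had 7.64 and 7.73 CPM in ultrasound libraries, against 2.76 and 2.36 CPM in piezoelectric libraries (log2 fold change 1.58 ± 0.19 (SE), adjusted p = 0.00046). Both ultrasound libraries lay above the other 6, since nanosticker libraries had 2.65 and 2.29 CPM and control libraries 2.58 and 2.51 CPM. Cxcl10 is on chromosome 14, plus strand, 17210733 to 17212930 (gene ID 245920). Cxcl1, the neutrophil attractant, was rarer, with 4.11 and 3.32 CPM in ultrasound libraries, against 1.03 and 0.701 CPM in piezoelectric libraries (log2 fold change 2.09 ± 0.29 (SE), adjusted p = 0.00131). Cxcl14 had 187 and 179.98 CPM in ultrasound libraries, against 99.2 and 97.8 CPM in piezoelectric libraries and was the most abundant of the 7 in CPM (log2 fold change 0.90 ± 0.08 (SE), adjusted p = 8.52e-05). Cxcl12, the ligand of the Cxcr4 receptor that guides migrating progenitors, had 37.1 and 35.6 CPM in ultrasound libraries, against 22.6 and 21.6 CPM in piezoelectric libraries (log2 fold change 0.72 ± 0.08 (SE), adjusted p = 0.000204). Ccl7 had 1.99 and 1.21 CPM in ultrasound libraries, against 0.321 and 0.319 CPM in piezoelectric libraries (2.30, adjusted p = 0.0234), and Ccl3 completed the 7. DESeq2 called 5 chemokine genes. Without any 1 of the 4 libraries 5 were called, and without either control library 9. The call of Ccl7 ended without any 1 ultrasound, piezoelectric or nanosticker library (adjusted p from 0.0533 to 0.26).

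NF-kappa B is the transcription factor that Toll-like and cytokine receptors activate, and several of its targets are its own inhibitors. Of 19 genes of this pathway, 5 were higher and 0 lower (median 0.32). Nfkbia, which encodes the inhibitor that holds the factor in the cytoplasm, had 89.3 and 82.8 CPM in ultrasound libraries, against 59.1 and 56.9 CPM in piezoelectric libraries (log2 fold change 0.57 ± 0.08 (SE), adjusted p = 0.00198). Bcl3, an atypical member of the inhibitor family that acts in the nucleus, had 22.02 and 21.2 CPM in ultrasound libraries, against 11.3 and 11.4 CPM in piezoelectric libraries (log2 fold change 0.92 ± 0.10 (SE), adjusted p = 0.000204). Neither gene overlapped between the groups, nor did any other called gene or 48.5% of all genes tested. Icam1, the leukocyte adhesion molecule, had 19.4 and 21.3 CPM in ultrasound libraries, against 12.95 and 12.3 CPM in piezoelectric libraries (log2 fold change 0.69 ± 0.11 (SE), adjusted p = 0.00272). Birc3, an inhibitor of apoptosis, and Tnfaip2 had log2 fold changes of 1.15, adjusted p = 0.0108, and 0.38, adjusted p = 0.0282. Nfkb1 and Rela, the subunits themselves, had log2 fold changes of 0.22 and 0.20 (adjusted p = 0.12 and 0.19). The count was 1 to 3 without 1 of the 4 libraries, 3 by DESeq2, and 12 and 13 without control replicate 1 and 2. The call of Tnfaip2 ended without any 1 ultrasound, piezoelectric or nanosticker library (adjusted p from 0.0563 to 0.282). The call of Birc3 ended without ultrasound replicate 2 or either piezoelectric library (adjusted p from 0.103 to 0.162). The call of Icam1 ended without ultrasound replicate 2 or piezoelectric replicate 2 (adjusted p from 0.0644 to 0.0671). The call of Nfkbia ended without ultrasound replicate 1 or piezoelectric replicate 2 (adjusted p from 0.0531 to 0.0554).

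Interferon-stimulated genes code for antiviral effectors. Of 33 tested, 19 were higher and 0 lower, all 33 had a positive log2 fold change, and their median was 0.56. Gbp2, a guanylate-binding GTPase that marks pathogen vacuoles, had 67.3 and 75.6 CPM in ultrasound libraries, against 43.2 and 41.5 CPM in piezoelectric libraries. The log2 fold change was 0.75 ± 0.07 (SE), adjusted p = 0.000133. In nanosticker libraries Gbp2 stood at 51.8 and 50.9 CPM and in control libraries at 44.7 and 43.8 CPM. Gbp2 is on chromosome 2, plus strand, 248276795 to 248293784 (gene ID 171164). Rsad2, which encodes the antiviral enzyme viperin, had 9.69 and 9.90 CPM in ultrasound libraries, against 4.36 and 4.97 CPM in piezoelectric libraries (log2 fold change 1.07 ± 0.16 (SE), adjusted p = 0.00204). Nanosticker libraries lay lowest of all, at 1.79 and 1.82 CPM, against 4.26 and 4.12 CPM in control libraries. Dhx58, a cytoplasmic sensor of viral RNA, had 12.5 and 13.6 CPM in ultrasound libraries, against 6.80 and 6.38 CPM in piezoelectric libraries (log2 fold change 0.98 ± 0.14 (SE), adjusted p = 0.0014).

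Mx1 and Mx2, dynamin-like GTPases that block viruses, had log2 fold changes of 1.69 and 0.40 (adjusted p = 0.00126 and 0.00133), but their deposited counts include shares of reads divided between genes, so both values are uncertain. Gbp5 had 8.92 and 6.96 CPM in ultrasound libraries, against 3.33 and 3.83 CPM in piezoelectric libraries (log2 fold change 1.15 ± 0.18 (SE), adjusted p = 0.00325). The other members called were Irf1, Ifi44, Isg15, Dtx3l, Ddx58, Parp14, Irf7, Ifit3, Ifit2, Rtp4, Parp9, Oasl and Oas1a, with log2 fold changes from 0.30 to 2.18. Among them Irf1 and Irf7 are transcription factors of the interferon response and Isg15 is its ubiquitin-like modifier. The count of the list was 5 to 8 without 1 of the 4 libraries, 8 by DESeq2 and 25 without either control library. The call of Gbp5 ended without ultrasound replicate 1 or piezoelectric replicate 1 (adjusted p from 0.0565 to 0.074).

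**Figure D3:**
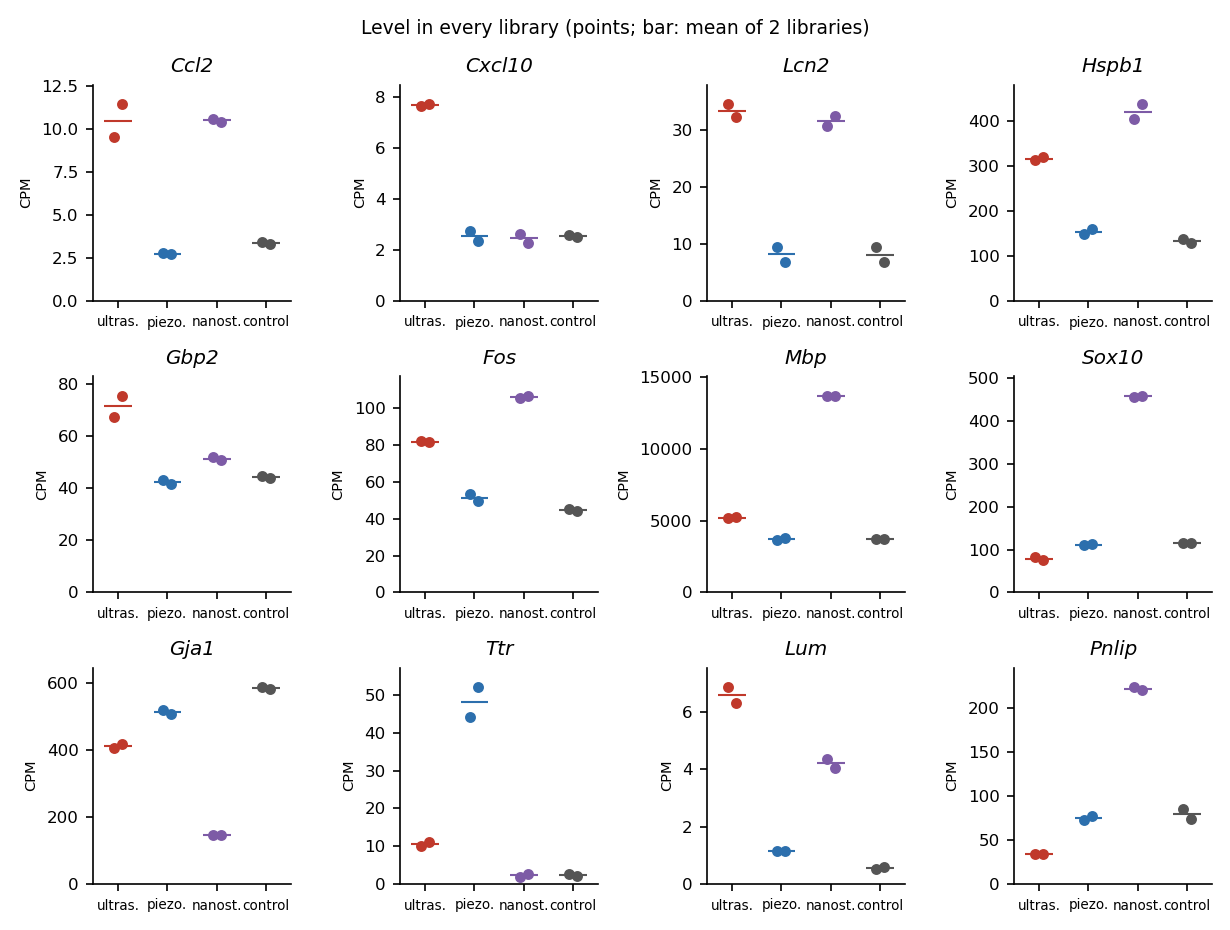
Level of 12 genes in every library, in CPM on a linear axis from 0, with 1 point per library and a bar at the mean of 2. The 2 ultrasound points lie above the 2 piezoelectric ones for Ccl2, Cxcl10, Lcn2, Hspb1, Gbp2, Fos, Mbp and Lum and below them for Sox10, Gja1, Ttr and Pnlip, while the nanosticker points sit with ultrasound for some genes and far from both for others.

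Of 16 genes of MHC class I antigen processing, 1 was higher and 0 lower (median 0.21). That gene was RT1-A2, a rat class I heavy chain (0.43, adjusted p = 0.00414), whose reads are divided with near-identical class I genes, so the value is uncertain. B2m, the light chain shared by all class I molecules, had a log2 fold change of 0.20 (adjusted p = 0.086). Of 12 complement genes, 3 were higher and 0 lower (median 0.34). C3, the central component, had 96.6 and 96.6 CPM in ultrasound libraries, against 60.3 and 56.8 CPM in piezoelectric libraries (log2 fold change 0.72 ± 0.08 (SE), adjusted p = 0.000311). Serping1, the inhibitor of the first protease complex, had 44.7 and 41.96 CPM in ultrasound libraries, against 28.02 and 26.3 CPM in piezoelectric libraries (log2 fold change 0.68 ± 0.08 (SE), adjusted p = 0.000679). C1s, a protease of that complex, was higher as well (0.47, adjusted p = 0.000894). These 3 genes did not overlap between the groups, nor did any other called gene or 48.5% of all genes tested. Their calls held without any 1 library. Fits that lacked a control library called 4 class I genes and 5 complement genes. The call of RT1-A2 ended without any 1 of the 4 libraries compared (adjusted p from 0.0541 to 0.0706).

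Microglia also express chemokine, interferon and complement genes, so their markers are given beside these lists. None of 16 microglia genes was called by edgeR, 3 had an unadjusted p below 0.05, and DESeq2 called 0. All 16 log2 fold changes were positive (median 0.40), and none of the 16 was at 0 in all 4 libraries. The sum of the list was 42.7 and 36.9 CPM in ultrasound libraries, against 30.1 and 30.9 CPM in piezoelectric libraries. It was 7.81 and 8.23 CPM in nanosticker libraries and 48.0 and 38.8 CPM in control libraries. The part of microglial RNA in the inflammatory lists was not tested. Leaving out either control library gave 1 call.

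Reactive astrocytes are those that injury or inflammation has switched into another state. Of 23 genes of this state, 14 were higher and 0 lower, with a median of 0.54. Lcn2, a secreted protein that sequesters bacterial iron carriers, had 34.6 and 32.3 CPM in ultrasound libraries, against 9.55 and 6.89 CPM in piezoelectric libraries. The ultrasound values were more than any piezoelectric or control value and close to the nanosticker ones, which were 30.8 and 32.4 CPM against 9.49 and 6.83 CPM in control libraries. The test gave log2 fold change 2.02 ± 0.16 (SE), adjusted p = 0.000106. Lcn2 is on chromosome 3, minus strand, 11414187 to 11417534 (gene ID 170496). Hspb1, the small heat shock protein, had 313 and 321 CPM in ultrasound libraries, against 149 and 159.99 CPM in piezoelectric libraries (log2 fold change 1.04 ± 0.06 (SE), adjusted p = 7.94e-06). Nanosticker libraries had 404 and 438 CPM and control libraries 139 and 129.6 CPM, so that the order of the group means was nanosticker, ultrasound, piezoelectric, control. Hspb1 is on chromosome 12, minus strand, 23839390 to 23841051 (gene ID 24471).

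Cp, the copper-carrying ferroxidase ceruloplasmin, had 366 and 366 CPM in ultrasound libraries, against 221 and 205 CPM in piezoelectric libraries (log2 fold change 0.78 ± 0.06 (SE), adjusted p = 1.69e-05). Aspg, an asparaginase, had 20.3 and 18.01 CPM in ultrasound libraries, against 10.2 and 8.93 CPM in piezoelectric libraries (log2 fold change 1.00 ± 0.13 (SE), adjusted p = 0.000894). Emp1, a membrane protein, and Ptx3, a secreted pattern recognition molecule, had log2 fold changes of 0.91, adjusted p = 0.00133, and 0.83, adjusted p = 0.00159. None of these overlapped between the groups, nor did any other called gene or 48.5% of all genes tested. Timp1, an inhibitor of metalloproteases, had 140.4 and 141 CPM in ultrasound libraries, against 103 and 90.4 CPM in piezoelectric libraries (0.54, adjusted p = 0.0122). The rest of the 14 were the intermediate filament gene Vim, the cytokine receptor subunit gene Osmr, the hyaluronan receptor gene Cd44, S1pr3, Cd109, Sphk1 and S100a10, between 0.32 and 0.83. Gfap, the filament protein that reactive astrocytes are best known for, had 2585 and 2309 CPM in ultrasound libraries, against 2603 and 2408 CPM in piezoelectric libraries. The groups overlapped, and the interval of the difference was narrow (log2 fold change -0.03, 95% interval -0.18 to 0.11, adjusted p = 0.916). Between 6 and 10 members were called without 1 of the 4 libraries, the fewest without ultrasound replicate 1. The call of Timp1 ended without either ultrasound library or piezoelectric replicate 2 (adjusted p from 0.109 to 0.124).

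Genes of resting astrocytes went the other way. Of 17 core astrocyte genes, 0 were higher and 6 lower, 1 had a positive log2 fold change and the median was -0.18. Gja1, the gap junction protein connexin 43, had 406 and 416 CPM in ultrasound libraries, against 519.6 and 507 CPM in piezoelectric libraries (log2 fold change -0.32 ± 0.05 (SE), adjusted p = 0.00276). Its level ordered the groups in the reverse sense of Hspb1, with 145 and 146 CPM in nanosticker libraries and 587 and 579.9 CPM in control libraries. Gja1 is on chromosome 20, plus strand, 37876650 to 37889097 (gene ID 24392). Aldh1l1, a folate enzyme that marks astrocytes, had 17.7 and 17.8 CPM in ultrasound libraries, against 24.7 and 27.4 CPM in piezoelectric libraries (log2 fold change -0.55 ± 0.10 (SE), adjusted p = 0.0102). Slc4a4, a sodium bicarbonate cotransporter, had 172 and 171 CPM in ultrasound libraries, against 216 and 205 CPM in piezoelectric libraries (-0.29, adjusted p = 0.013). Ntsr2, a neurotensin receptor, and Fgfr3, a fibroblast growth factor receptor, had log2 fold changes of -0.33 and -0.27 (adjusted p = 0.0177 and 0.0298). Slc1a3, a glutamate transporter, had -0.12 (adjusted p = 0.34) and was not called. The count was 0 without either ultrasound library, 1 and 2 without piezoelectric replicate 2 and 1, and 9 without either control library. The call of Fgfr3 ended without any 1 ultrasound, piezoelectric or nanosticker library (adjusted p from 0.0647 to 0.388). The calls of Slc4a4 and Ntsr2 ended without any 1 of the 4 libraries compared (adjusted p from 0.0715 to 0.233). The call of Aldh1l1 ended without either ultrasound library or piezoelectric replicate 2 (adjusted p from 0.112 to 0.173). The call of Gja1 ended without either ultrasound library (adjusted p from 0.0522 to 0.0832).

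**Figure D4:**
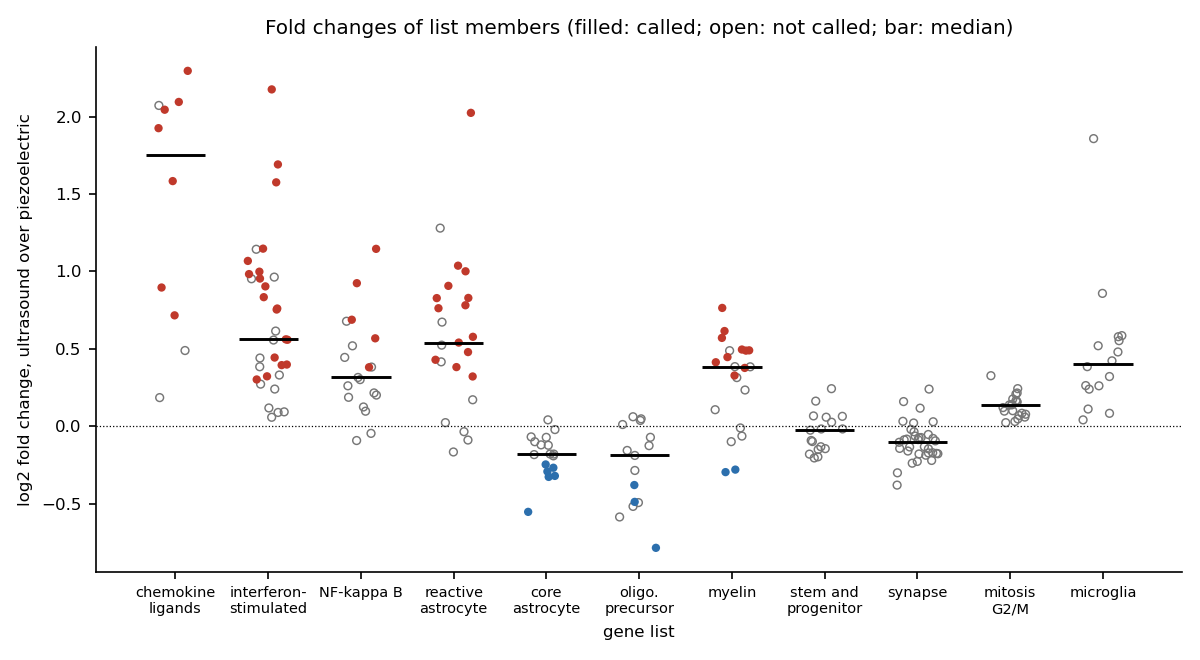
Log2 fold changes, ultrasound over piezoelectric, of the tested members of 11 gene lists. Filled points are called members (red higher, blue lower), open points are not called, and the bar is the list's median. Chemokine, interferon-stimulated and reactive astrocyte genes lie mostly above 0, core astrocyte genes mostly below it, stem cell genes around it and synapse genes mostly below it.

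Genes of the oligodendrocyte lineage moved in both directions. Of 15 genes of oligodendrocyte precursors and of cells just before myelination, 0 were higher and 3 lower (median -0.19). Sox10, the transcription factor that the whole lineage depends on, had 82.5 and 75.9 CPM in ultrasound libraries, against 109.8 and 112 CPM in piezoelectric libraries. Ultrasound libraries were the lowest of the 8, since nanosticker libraries had 458 and 459.8 CPM and control libraries 116 and 114 CPM (log2 fold change -0.49 ± 0.06 (SE), adjusted p = 0.000435). Sox10 is on chromosome 7, minus strand, 120393238 to 120403523 (gene ID 29361). Bcas1, a gene of premyelinating cells, had 679.9 and 699 CPM in ultrasound libraries, against 872 and 922 CPM in piezoelectric libraries (log2 fold change -0.38 ± 0.05 (SE), adjusted p = 0.00126). Enpp6, a choline phosphodiesterase of newly formed oligodendrocytes, had 27.3 and 26.6 CPM in ultrasound libraries, against 46.4 and 46.6 CPM in piezoelectric libraries (log2 fold change -0.78 ± 0.08 (SE), adjusted p = 0.000243), with reads divided between genes. These 3 calls held without any 1 library. Olig2, the factor that specifies the lineage, had 368 and 380.3 CPM in ultrasound libraries, against 400.4 and 433 CPM in piezoelectric libraries (log2 fold change -0.16, 95% interval -0.27 to -0.04, adjusted p = 0.193). Pdgfra, the growth factor receptor of precursors, had 456 and 456 CPM in ultrasound libraries, against 482 and 476 CPM in piezoelectric libraries (log2 fold change -0.07, 95% interval -0.21 to 0.07). Gpr17 (-0.58, adjusted p = 0.43) and Cspg4 (-0.28, adjusted p = 0.37) were not called. Without control replicate 1 or 2 the count was 6.

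Of 21 genes of myelin and mature oligodendrocytes, 10 were higher and 2 lower, and the median was 0.38. Mbp, which encodes the protein that compacts the myelin membrane, had 5141 and 5246 CPM in ultrasound libraries, against 3641 and 3751 CPM in piezoelectric libraries. The log2 fold change was 0.49 ± 0.05 (SE), adjusted p = 0.000171. Nanosticker libraries had 13674 and 13683 CPM and control libraries 3747 and 3724 CPM. Mbp is on chromosome 18, plus strand, 79326738 to 79437310 (gene ID 24547). Mag, the adhesion molecule of the inner myelin layer, had 335 and 346 CPM in ultrasound libraries, against 239 and 244 CPM in piezoelectric libraries (log2 fold change 0.50 ± 0.06 (SE), adjusted p = 0.000357). Mobp, a further small myelin protein, had 239 and 246 CPM in ultrasound libraries, against 170.4 and 175 CPM in piezoelectric libraries (log2 fold change 0.49 ± 0.05 (SE), adjusted p = 0.000252). Cldn11, the tight junction protein of myelin, had a log2 fold change of 0.38, adjusted p = 0.00414, and Plekhh1, with divided reads, of 0.45, adjusted p = 0.00362. The calls of Cldn11 and Plekhh1 ended without ultrasound replicate 1 or piezoelectric replicate 2 (adjusted p from 0.0709 to 0.104).

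The oligodendrocyte connexin gene Gjb1, the cytoskeletal gene Ermn and the enzyme gene Aspa were higher too, with log2 fold changes from 0.41 to 0.62. The 2 lower members were Myrf, the transcription factor that drives myelin genes (-0.28), and Fa2h, an enzyme of myelin lipids (-0.30). Mog, a surface protein of mature myelin, had 0.38 (adjusted p = 0.051). Between 4 and 7 higher members and 0 lower were called without 1 of the 4 libraries, and 9 higher and 0 lower without either nanosticker library.

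Markers of cells outside the neural lineage were mixed. Of 13 genes of the choroid plexus and the ependyma, 0 were higher and 2 lower (median -0.10). Ttr, which encodes the thyroid hormone carrier transthyretin of choroid plexus epithelium, had 10.1 and 11.05 CPM in ultrasound libraries, against 44.2 and 52.1 CPM in piezoelectric libraries. Among named genes with a mean of at least 5 CPM its log2 fold change was the most negative (-2.18 ± 0.14 (SE), adjusted p = 7.94e-06). Nanosticker libraries had 1.92 and 2.70 CPM and control libraries 2.71 and 2.00 CPM, so both groups compared lay above the other groups and piezoelectric libraries farthest. Ttr is on chromosome 18, minus strand, 15532963 to 15542180 (gene ID 24856). Sostdc1, a secreted BMP and Wnt antagonist, had 0.578 and 0.639 CPM in ultrasound libraries, against 1.35 and 1.91 CPM in piezoelectric libraries (-1.41, adjusted p = 0.0246). Other choroid plexus genes were at low levels, with Kl at 0 and 0.06 TPM in ultrasound libraries against 0.15 and 0.15 TPM in piezoelectric ones, and Kcne2 at 2.07 and 1.76 against 1.98 and 2.00 TPM. The list, Ttr included, summed to 119.7 and 122 CPM in ultrasound libraries, against 156 and 179 CPM in piezoelectric libraries. Ttr made up most of that difference. The call of Sostdc1 ended without either ultrasound library, piezoelectric replicate 2 or either nanosticker library (adjusted p from 0.0557 to 0.308).

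Of 15 fibroblast and meningeal genes, 1 was higher and 2 lower (median 0.05), and the list summed to 635 and 619.95 CPM in ultrasound libraries, against 615 and 655 CPM in piezoelectric libraries. Lum, a small proteoglycan that spaces collagen fibrils, had 6.87 and 6.32 CPM in ultrasound libraries, against 1.15 and 1.15 CPM in piezoelectric libraries. Its ultrasound values were the highest of the 8 libraries, against 4.37 and 4.05 CPM in nanosticker libraries and 0.516 and 0.579 CPM in control libraries (log2 fold change 2.51 ± 0.22 (SE), adjusted p = 5.52e-05). Lum is on chromosome 7, plus strand, 38820058 to 38826862 (gene ID 81682). Postn, the matrix protein periostin, had 5.71 and 4.41 CPM in ultrasound libraries, against 9.23 and 12.6 CPM in piezoelectric libraries (log2 fold change -1.11 ± 0.19 (SE), adjusted p = 0.00475). Nanosticker and control libraries were near the ultrasound level, at 4.90 and 4.72 and 4.58 and 4.25 CPM. Ogn, a small proteoglycan, had a log2 fold change of -0.43, adjusted p = 0.0172. The fibrillar collagen genes Col1a1 and Col3a1 had log2 fold changes of -0.09 and 0.15 (adjusted p = 0.75 and 0.58). The call of Ogn ended without ultrasound replicate 1 or either piezoelectric library (adjusted p from 0.115 to 0.255). The call of Postn ended without ultrasound replicate 2 or piezoelectric replicate 2 (adjusted p from 0.11 to 0.112).

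None of 8 endothelial and pericyte genes was called by edgeR (median 0.11), 0 had an unadjusted p below 0.05 and DESeq2 called 0. Of 8 Schwann cell genes, 0 were higher and 1 lower (median 0.11). That was Gldn, a protein of the node of Ranvier, with 3.59 and 4.09 CPM in ultrasound libraries, against 7.12 and 7.14 CPM in piezoelectric libraries (-0.89, adjusted p = 0.0244). DESeq2 called no Schwann cell gene. The call of Gldn ended without any 1 of the 4 libraries compared (adjusted p from 0.137 to 0.255).

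None of 17 neural stem and progenitor genes was called by edgeR, 6 had an unadjusted p below 0.05 and DESeq2 called 0 (median -0.02). Sox2, which maintains neural stem cells, had 265 and 262 CPM in ultrasound libraries, against 289 and 293 CPM in piezoelectric libraries (log2 fold change -0.14, 95% interval -0.27 to -0.02, adjusted p = 0.274). Nes, the filament protein nestin, had 458 and 483 CPM in ultrasound libraries, against 406 and 388 CPM in piezoelectric libraries (log2 fold change 0.24, 95% interval 0.03 to 0.46, adjusted p = 0.286). For both the libraries of the groups did not overlap, yet neither passed the test in the fit of all 8 libraries. In fits without a control library 1 member was higher and 1 lower.

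Of 19 neuroblast and neuronal cytoskeleton genes, 1 was higher and 1 lower (median -0.11). Ncam1, the neural cell adhesion molecule, had 669 and 658 CPM in ultrasound libraries, against 810.1 and 789.8 CPM in piezoelectric libraries (-0.27, adjusted p = 0.0118). Stmn2, a microtubule regulator of growth cones, had 148 and 136 CPM in ultrasound libraries, against 117 and 111 CPM in piezoelectric libraries (0.31, adjusted p = 0.0493). Dcx, the microtubule protein of migrating young neurons, had a log2 fold change of -0.15, 95% interval -0.30 to 0.00. Tubb3 had -0.22, 95% interval -0.36 to -0.07, Map2 had -0.13, 95% interval -0.25 to -0.02, and Rbfox3, a gene of mature neurons, had -0.10, 95% interval -0.54 to 0.34. Fits without control replicate 1 and 2 gave 4 and 5 lower members. The call of Stmn2 ended without any 1 ultrasound, piezoelectric or nanosticker library (adjusted p from 0.103 to 0.437). The call of Ncam1 ended without any 1 of the 4 libraries compared (adjusted p from 0.0886 to 0.185).

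Of 14 Dlx and GABA neuron genes, 1 was higher and 1 lower (median -0.14). Npy, the precursor of neuropeptide Y, had 31.9 and 36.5 CPM in ultrasound libraries, against 19.6 and 19.9 CPM in piezoelectric libraries (log2 fold change 0.79 ± 0.09 (SE), adjusted p = 0.000252), with divided reads. Dlx2, a homeobox factor of interneuron precursors, had 25.5 and 24.97 CPM in ultrasound libraries, against 36.9 and 30.5 CPM in piezoelectric libraries (-0.42, adjusted p = 0.0333). In nanosticker libraries Dlx2 stood at 3.97 and 4.32 CPM, against 33.1 and 34.96 CPM in control libraries. None of 34 synapse and neurotransmitter receptor genes was called by edgeR (median -0.10), against 3.5% of all genes tested. An unadjusted p below 0.05 was found for 6, and DESeq2 called 0. Of the 34 log2 fold changes 6 were positive. Without control replicate 1 and 2, 3 and 4 of them were lower. The call of Dlx2 ended without either ultrasound library, piezoelectric replicate 1 or either nanosticker library (adjusted p from 0.0601 to 0.374).

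Voltage-gated calcium channels carry calcium into excited cells. Of 15 tested, 0 were higher and 1 lower (median 0.03). Cacna1e, the pore of R-type channels, had 13.03 and 12.8 CPM in ultrasound libraries, against 22.2 and 16.96 CPM in piezoelectric libraries (-0.60, adjusted p = 0.0305). Cacna1c, the pore of the main L-type channel, had 31.1 and 30.4 CPM in ultrasound libraries, against 39.5 and 37.7 CPM in piezoelectric libraries. Its groups did not overlap but it missed the threshold (log2 fold change -0.33, 95% interval -0.51 to -0.15, adjusted p = 0.0522). The call of Cacna1e ended without either ultrasound library or piezoelectric replicate 1 (adjusted p from 0.226 to 0.348).

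Of 13 mechanosensitive channel genes, 1 was higher and 0 lower (median 0.11). Kcnk10, a potassium channel that membrane stretch opens, had 73.5 and 71.4 CPM in ultrasound libraries, against 52.1 and 49.2 CPM in piezoelectric libraries, and both ultrasound libraries exceeded the other 6 (log2 fold change 0.52 ± 0.07 (SE), adjusted p = 0.00103). Nanosticker libraries had 55.5 and 53.7 CPM and control libraries 46.6 and 49.8 CPM. The call held without any 1 library. Piezo1, a channel that membrane tension opens, had 12 and 11.05 CPM in ultrasound libraries, against 7.89 and 7.84 CPM in piezoelectric libraries (log2 fold change 0.55, 95% interval 0.22 to 0.89, adjusted p = 0.0797) and was not called. With a control library left out, 2 members were higher.

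Of 17 Hippo pathway and YAP target genes, 1 was higher and 2 lower (median -0.18). The lower ones were Crim1, a membrane protein that binds BMPs (-0.48, adjusted p = 0.00414), and Ccn2, the matricellular target that is often used to read YAP (-0.42, adjusted p = 0.0233). Gadd45b, a stress gene, had 0.41 (adjusted p = 0.0491). With a control library left out, 4 members were lower. The calls of Ccn2 and Gadd45b ended without any 1 ultrasound, piezoelectric or nanosticker library (adjusted p from 0.0512 to 0.396). The call of Crim1 ended without ultrasound replicate 2 or piezoelectric replicate 2 (adjusted p from 0.0639 to 0.104).

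Immediate early genes are transcribed within minutes of a stimulus. Of 23 tested, 5 were higher and 0 lower, with a median of 0.33. All 5 belong to the AP-1 and ATF family of transcription factors. Fos had 82.03 and 81.6 CPM in ultrasound libraries, against 53.5 and 49.4 CPM in piezoelectric libraries (log2 fold change 0.67 ± 0.06 (SE), adjusted p = 0.000121). Nanosticker libraries were higher still, at 106 and 107 CPM, and control libraries stood at 45.1 and 44.5 CPM. Fos is on chromosome 6, plus strand, 109300433 to 109303299 (gene ID 314322). Junb, a partner of Fos, had 45.8 and 41.4 CPM in ultrasound libraries, against 26.03 and 27.8 CPM in piezoelectric libraries (log2 fold change 0.70 ± 0.08 (SE), adjusted p = 0.000435). Atf3, a stress-induced factor, had 36.3 and 37.3 CPM in ultrasound libraries, against 19.6 and 19.4 CPM in piezoelectric libraries (log2 fold change 0.92 ± 0.08 (SE), adjusted p = 8.52e-05), with divided reads. Jun had 175 and 173 CPM in ultrasound libraries, against 137 and 139 CPM in piezoelectric libraries (0.33, adjusted p = 0.00404) and Fosb 1.60 and 2.55 CPM in ultrasound libraries, against 0.513 and 0.893 CPM in piezoelectric libraries (1.55, adjusted p = 0.04). Egr1 (0.25, adjusted p = 0.25) and Nr4a1 (-0.28, adjusted p = 0.19), early genes of other families, were not called. The count was 3 without any 1 of the 4 libraries. The call of Fosb ended without any 1 ultrasound, piezoelectric or nanosticker library (adjusted p from 0.0699 to 0.405). The call of Jun ended without any 1 of the 4 libraries compared (adjusted p from 0.0621 to 0.0855).

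Of 14 MAP kinase feedback genes, 2 were higher and 0 lower (median 0.11). They were Phlda1 (0.32, adjusted p = 0.0267) and Spred3, an inhibitor of Ras signalling (0.30, adjusted p = 0.041). No member was called by DESeq2 or without any 1 of the ultrasound, piezoelectric or nanosticker libraries, and 3 were higher without either control library. The calls of Phlda1 and Spred3 ended without any 1 ultrasound, piezoelectric or nanosticker library (adjusted p from 0.0557 to 0.319).

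Of 22 genes of BMP and TGF-beta signalling, 2 were higher and 5 lower (median -0.19). Grem1, a secreted antagonist that binds BMPs, had 6.29 and 6.83 CPM in ultrasound libraries, against 1.54 and 1.02 CPM in piezoelectric libraries. The ultrasound libraries were the highest of the 8, against 4.17 and 3.37 CPM in nanosticker libraries and 1.23 and 0.901 CPM in control libraries (log2 fold change 2.35 ± 0.25 (SE), adjusted p = 0.000239). Grem1 is on chromosome 3, minus strand, 105203309 to 105214989 (gene ID 50566). Bmp4, a ligand that directs neural stem cells to astrocytes, had 54.4 and 55.3 CPM in ultrasound libraries, against 81.4 and 85.7 CPM in piezoelectric libraries (log2 fold change -0.61 ± 0.07 (SE), adjusted p = 0.000435). Bmp6, a related ligand, had 70.2 and 73.4 CPM in ultrasound libraries, against 82.8 and 94.6 CPM in piezoelectric libraries (-0.31, adjusted p = 0.0432). Smad9, which encodes a transcription factor that BMP receptors phosphorylate, had 6.16 and 7.34 CPM in ultrasound libraries, against 13.3 and 13.1 CPM in piezoelectric libraries (log2 fold change -0.97 ± 0.14 (SE), adjusted p = 0.0014), and the antagonist gene Nog had -0.48, adjusted p = 0.0408 on the log2 scale, both with divided reads. The call of Bmp6 ended without either ultrasound library, piezoelectric replicate 2 or either nanosticker library (adjusted p from 0.0752 to 0.461). The call of Nog ended without any 1 of the 4 libraries compared (adjusted p from 0.202 to 0.34).

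Id3, a target that keeps progenitors undifferentiated, completed the 5 at -0.29. BMP and TGF-beta counts were 1 higher and 2 or 3 lower without 1 of the ultrasound, piezoelectric or nanosticker libraries, and 4 higher and 6 lower without either control library. DESeq2 called 1 higher and 3 lower.

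Of 22 Notch pathway genes, 0 were higher and 2 lower (median -0.09). Hes5, the main effector of Notch in neural stem cells, had 3.59 and 2.62 CPM in ultrasound libraries, against 5.90 and 8.10 CPM in piezoelectric libraries (log2 fold change -1.17 ± 0.23 (SE), adjusted p = 0.0136). Its groups did not overlap, nor did those of any other called gene or of 48.5% of all genes tested. Hes5 is on chromosome 5, plus strand, 172364421 to 172365302 (gene ID 79225). Dner, a transmembrane Notch ligand, had 82.4 and 78.6 CPM in ultrasound libraries, against 95.9 and 100.05 CPM in piezoelectric libraries (-0.28, adjusted p = 0.0326), and Jag2, another ligand, had -0.53 (adjusted p = 0.052). Of 18 Wnt pathway genes, 1 was higher and 0 lower (median 0.0043). It was Fzd10, a Wnt receptor, with 28.4 and 31.2 CPM in ultrasound libraries, against 23.1 and 20.02 CPM in piezoelectric libraries (0.47, adjusted p = 0.0188), and DESeq2 called no Wnt gene. Leaving out a control library gave 1 higher and 4 lower Notch genes and 2 higher Wnt genes. The call of Dner ended without any 1 ultrasound, piezoelectric or nanosticker library (adjusted p from 0.0569 to 0.326). The calls of Hes5 and Fzd10 ended without either ultrasound library or piezoelectric replicate 2 (adjusted p from 0.0558 to 0.27).

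Of 16 growth factor and neurotrophin genes, 3 were higher and 1 lower (median -0.0066). Lif, a cytokine that drives astrocyte differentiation, had 8.22 and 6.64 CPM in ultrasound libraries, against 4.49 and 4.66 CPM in piezoelectric libraries (0.70, adjusted p = 0.0376). Cntf, a related cytokine, had 62.01 and 65.1 CPM in ultrasound libraries, against 51.04 and 49.4 CPM in piezoelectric libraries (0.34, adjusted p = 0.0284). The co-receptor genes of the GDNF family differed in opposite directions, Gfra1 higher (0.34, adjusted p = 0.0364, divided reads) and Gfra2 lower (-0.78, adjusted p = 0.0284). Bdnf, the activity-dependent neurotrophin, was near the limit of detection, with 0.514 and 0.830 CPM in ultrasound libraries, against 0.834 and 0.510 CPM in piezoelectric libraries (95% interval of the log2 fold change -1.32 to 1.33). Of 13 genes of the insulin-like growth factor system, 1 was higher and 1 lower (median 0.06), the binding protein genes Igfbp3 (0.28, adjusted p = 0.0428) and Igfbp2 (-0.26, adjusted p = 0.0428). DESeq2 called none of the 6 called growth factor and insulin-like genes. Leaving out a control library gave 2 higher and 3 lower insulin-like growth factor genes. The calls of Lif, Cntf, Igfbp3 and Igfbp2 ended without any 1 ultrasound, piezoelectric or nanosticker library (adjusted p from 0.0547 to 0.425). The call of Gfra1 ended without either ultrasound library, piezoelectric replicate 2 or either nanosticker library (adjusted p from 0.0703 to 0.396). The call of Gfra2 ended without any 1 of the 4 libraries compared (adjusted p from 0.0621 to 0.285).

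Matrix genes moved in both directions. Of 28 collagen genes, 2 were higher and 3 lower (median 0.04). Col6a1 and Col6a2, chains of the beaded collagen VI, were the 2 higher in ultrasound libraries. Col6a1 had 32.5 and 31.9 CPM in ultrasound libraries, against 16.8 and 15.2 CPM in piezoelectric libraries (log2 fold change 1.01 ± 0.09 (SE), adjusted p = 5.52e-05). Col6a2 had 79.1 and 77.8 CPM in ultrasound libraries, against 48.9 and 43.2 CPM in piezoelectric libraries (log2 fold change 0.77 ± 0.07 (SE), adjusted p = 8.52e-05). For both genes the ultrasound libraries lay between nanosticker libraries, at 37.8 and 37.02 and 108 and 111 CPM, and piezoelectric ones. Col22a1, a collagen of tissue junctions, had 10.3 and 9.58 CPM in ultrasound libraries, against 19.7 and 18.6 CPM in piezoelectric libraries (log2 fold change -0.95 ± 0.13 (SE), adjusted p = 0.00137). Col20a1 and Col11a2 had log2 fold changes of -0.62, adjusted p = 0.0365, and -0.39, adjusted p = 0.0447. Without 1 of the 4 libraries 2 were higher and 1 lower, as without either nanosticker library, and 5 were higher and 4 lower without either control library. The calls of Col20a1 and Col11a2 ended without any 1 ultrasound, piezoelectric or nanosticker library (adjusted p from 0.0519 to 0.42).

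Of 8 small leucine-rich proteoglycan genes, 1 was higher and 2 lower (median -0.19). Lum was higher, as given above. Fmod, which encodes fibromodulin, had 13.5 and 12.01 CPM in ultrasound libraries, against 24.4 and 25.8 CPM in piezoelectric libraries (log2 fold change -0.98 ± 0.10 (SE), adjusted p = 0.000143), and Ogn was the other lower member. Lox, the enzyme that crosslinks collagen and elastin, belongs to no list here and was among the largest decreases, with 30.5 and 30.8 CPM in ultrasound libraries, against 56.6 and 60.3 CPM in piezoelectric libraries (log2 fold change -0.93 ± 0.07 (SE), adjusted p = 3.32e-05). Both ultrasound libraries were below the other 6. Lox is on chromosome 18, minus strand, 47500320 to 47577819 (gene ID 24914). Ltbp2, a microfibril protein, had 9.50 and 8.81 CPM in ultrasound libraries, against 18.9 and 21.7 CPM in piezoelectric libraries (log2 fold change -1.15 ± 0.14 (SE), adjusted p = 0.000435).

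Of 15 hyaluronan and lectican genes, 2 were higher and 3 lower (median -0.01). Tnfaip6, which modifies hyaluronan in inflamed tissue, had 16.8 and 16.6 CPM in ultrasound libraries, against 11.3 and 11.1 CPM in piezoelectric libraries (log2 fold change 0.58 ± 0.10 (SE), adjusted p = 0.00529). Hapln2, a link protein of nodes of Ranvier, had 14.5 and 15.97 CPM in ultrasound libraries, against 9.87 and 8.74 CPM in piezoelectric libraries (log2 fold change 0.71 ± 0.13 (SE), adjusted p = 0.0104). Bcan, the brain lectican brevican, had 849 and 823 CPM in ultrasound libraries, against 1118 and 1122 CPM in piezoelectric libraries (log2 fold change -0.42 ± 0.06 (SE), adjusted p = 0.00129), with divided reads. Acan, the large lectican aggrecan, was rare in all 4 libraries, with 0.514 and 0.319 CPM in ultrasound libraries, against 2.12 and 2.10 CPM in piezoelectric libraries (log2 fold change -2.32 ± 0.37 (SE), adjusted p = 0.00325). Cemip, which helps to degrade hyaluronan, had 6.80 and 7.54 CPM in ultrasound libraries, against 11.7 and 11.1 CPM in piezoelectric libraries (-0.67, adjusted p = 0.0156). It stood at 4.45 and 4.25 CPM in control libraries, below both groups. Without 1 of the 4 libraries 0 or 1 were higher and 1 or 2 lower. The calls of Tnfaip6 and Cemip ended without any 1 of the 4 libraries compared (adjusted p from 0.0521 to 0.195). The call of Hapln2 ended without either ultrasound library or piezoelectric replicate 2 (adjusted p from 0.0645 to 0.163). The call of Acan ended without ultrasound replicate 2 (adjusted p = 0.0715).

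Of 17 tenascin, thrombospondin and other matricellular genes, 3 were higher and 2 lower (median 0.0031). Thbs2, a thrombospondin that astrocytes secrete, had 37.2 and 40.7 CPM in ultrasound libraries, against 18.7 and 18.8 CPM in piezoelectric libraries (log2 fold change 1.05 ± 0.09 (SE), adjusted p = 5.52e-05). Spp1, the cytokine-like matrix protein osteopontin, had 59.9 and 53.3 CPM in ultrasound libraries, against 30.5 and 23.8 CPM in piezoelectric libraries (log2 fold change 1.06 ± 0.12 (SE), adjusted p = 0.000883). Ccn3, a secreted protein of the same family as Ccn2, had 11.7 and 11.7 CPM in ultrasound libraries, against 5.26 and 5.29 CPM in piezoelectric libraries (log2 fold change 1.15 ± 0.18 (SE), adjusted p = 0.00266). These 3 genes did not overlap between the groups, nor did any other called gene or 48.5% of all genes tested. The 3 calls held without any 1 library. The lower members were Postn and Ccn2. Without 1 of the 4 libraries or of the nanosticker libraries 0 or 1 were lower, and 4 without either control library.

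Of 25 integrin, laminin and basement membrane genes, 2 were higher and 0 lower (median -0.06). Itgb4, the laminin receptor subunit of hemidesmosomes, had 531 and 523 CPM in ultrasound libraries, against 337 and 333 CPM in piezoelectric libraries (log2 fold change 0.65 ± 0.08 (SE), adjusted p = 0.000469). It had 339.9 and 348 CPM in nanosticker libraries and 182 and 221 CPM in control libraries, so ultrasound libraries were the highest. Itga8 had 20.5 and 19.4 CPM in ultrasound libraries, against 12.6 and 12.1 CPM in piezoelectric libraries (log2 fold change 0.69 ± 0.09 (SE), adjusted p = 0.000894). Of 21 metalloprotease and inhibitor genes, 2 were higher and 1 lower (median 0.07). Adamts4, a protease that cuts lecticans, had 93.8 and 93.3 CPM in ultrasound libraries, against 57.7 and 65.9 CPM in piezoelectric libraries (log2 fold change 0.60 ± 0.07 (SE), adjusted p = 0.000343), Timp1 was higher as given above, and the inhibitor gene Timp3 was lower (-0.25, adjusted p = 0.0351). Without either control library 5 integrin and laminin genes were higher and 3 lower, and 4 metalloprotease genes higher and 3 lower. The call of Timp3 ended without any 1 ultrasound, piezoelectric or nanosticker library (adjusted p from 0.0534 to 0.338).

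Of 22 NRF2 target genes, which answer oxidative stress, 1 was higher and 1 lower (median -0.05). The lower one was Slc7a11, the cystine transporter that feeds glutathione synthesis, with 159.6 and 144 CPM in ultrasound libraries, against 221 and 203 CPM in piezoelectric libraries (log2 fold change -0.48 ± 0.09 (SE), adjusted p = 0.0164). Of 16 glutathione S-transferase genes, 0 were higher and 2 lower (median -0.0074). Gstm2 had 14.7 and 18.8 CPM in ultrasound libraries, against 36.2 and 40.2 CPM in piezoelectric libraries (log2 fold change -1.19 ± 0.10 (SE), adjusted p = 5.52e-05). Its ultrasound libraries were the lowest of the 8, against 45.8 and 45.9 CPM in nanosticker libraries and 57.4 and 55.2 CPM in control libraries. Gstm2 is on chromosome 2, minus strand, 210778041 to 210782807 (gene ID 24424). Gstm7, a close relative, had 171 and 172 CPM in ultrasound libraries, against 200.4 and 211 CPM in piezoelectric libraries (-0.27, adjusted p = 0.0298). The call of Gstm7 ended without any 1 ultrasound, piezoelectric or nanosticker library (adjusted p from 0.0622 to 0.334). The call of Slc7a11 ended without any 1 of the 4 libraries compared (adjusted p from 0.0562 to 0.174).

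Of 20 p53 target genes, 1 was higher and 0 lower (median 0.09). It was Plk2, a kinase that neuronal activity and DNA damage induce (0.45, adjusted p = 0.00277). Of 21 ATF4 and unfolded protein response genes, 0 were higher and 1 lower (median -0.05), the serine synthesis gene Psat1 with 409 and 410.5 CPM in ultrasound libraries, against 510.00 and 523 CPM in piezoelectric libraries (log2 fold change -0.33 ± 0.06 (SE), adjusted p = 0.00475). Of 16 hypoxia and glycolysis genes, 0 were higher and 1 lower (median -0.09), the glucose transporter gene Slc2a1 (-0.27, adjusted p = 0.0284). Of 12 iron genes, 2 were higher and 0 lower (median 0.05). Tf, the iron carrier transferrin that oligodendrocytes make, had 446 and 416 CPM in ultrasound libraries, against 251 and 202 CPM in piezoelectric libraries (log2 fold change 0.93 ± 0.10 (SE), adjusted p = 0.00118). The call of Tf ended in a fit of the 4 libraries alone (adjusted p = 0.0946). Slc40a1, the iron exporter, was called (adjusted p = 0.013) on 1.54 and 1.02 CPM in ultrasound libraries, against 0.128 and 0 CPM in piezoelectric ones, with divided reads. Without either control library 4 p53 targets were higher, 3 ATF4 genes lower, and 1 hypoxia gene higher and 2 lower. The call of Slc2a1 ended without any 1 ultrasound, piezoelectric or nanosticker library (adjusted p from 0.0591 to 0.402). The calls of Psat1 and Slc40a1 ended without either ultrasound library or piezoelectric replicate 2 (adjusted p from 0.0561 to 0.149). The call of Plk2 ended without ultrasound replicate 1 (adjusted p = 0.069).

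None of 11 heat shock genes, 22 genes of cholesterol synthesis, uptake and efflux or 19 lysosome genes was called by edgeR or by DESeq2, with medians of -0.02, -0.03 and 0.06. Hspb1, described above, is in the reactive astrocyte list and not among these 11. At an unadjusted p below 0.05 there were 2, 2 and 6 of them. Without control replicate 1, 1 heat shock and 1 cholesterol gene were lower, and 4 lysosome genes were higher and 1 lower. Cell cycle genes gave no call by edgeR or DESeq2. Of 19 genes of DNA replication and S phase, 2 had an unadjusted p below 0.05 (median 0.01), and of 21 genes of mitosis and G2/M 4 did (median 0.14). All 21 mitosis log2 fold changes were positive, and the largest was 0.33, in Birc5. Mki67, the common marker of cycling cells, had 132 and 128 CPM in ultrasound libraries, against 121 and 130.1 CPM in piezoelectric libraries (log2 fold change 0.05, 95% interval -0.20 to 0.30, adjusted p = 0.931), with divided reads. A single mitosis gene was higher once a control library was left out.

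**Figure D5:**
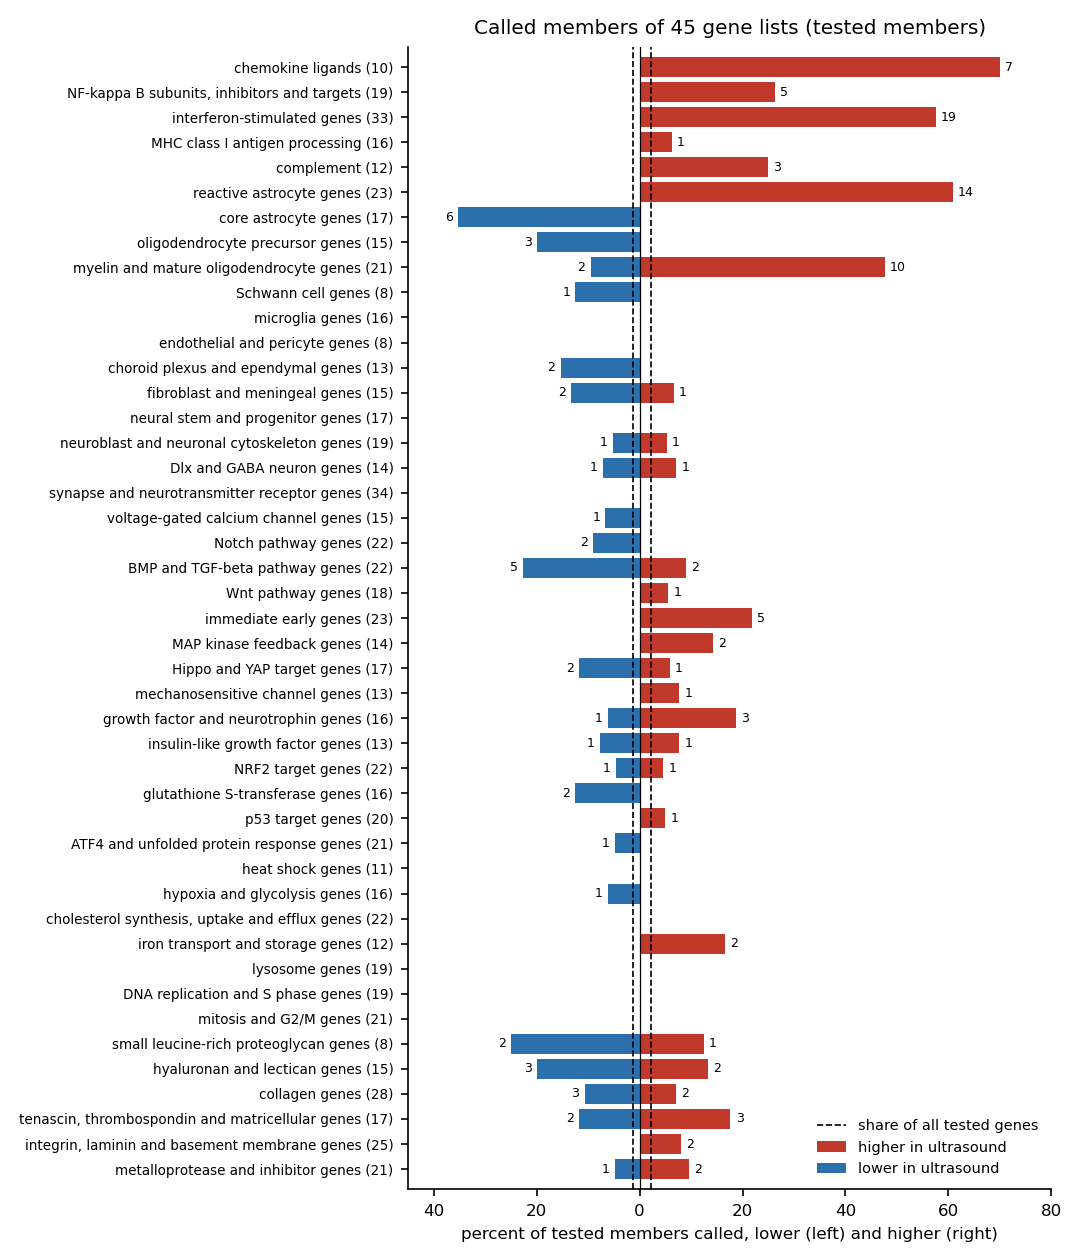
Percent of the tested members of 45 gene lists called higher (right, red) or lower (left, blue) in ultrasound libraries, with the number called beside each bar and the number tested in brackets. Dashed lines mark the share of all tested genes, 2.13% higher and 1.37% lower. In small lists 1 gene exceeds these lines, while chemokine, reactive astrocyte, interferon-stimulated and myelin genes exceed them with 7 or more.

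Among the largest increases and decreases that met the naming rule were genes of no list. Gpnmb, a transmembrane glycoprotein of phagocytes and glia, had 123 and 116 CPM in ultrasound libraries, against 55.8 and 45.6 CPM in piezoelectric libraries (log2 fold change 1.23 ± 0.10 (SE), adjusted p = 6.53e-05). Trh, the precursor of thyrotropin-releasing hormone, had 11.1 and 15.3 CPM in ultrasound libraries, against 6.09 and 4.78 CPM in piezoelectric libraries (log2 fold change 1.28 ± 0.17 (SE), adjusted p = 0.00188). Nanosticker libraries stood far higher, at 102 and 102 CPM, against 4.39 and 3.73 CPM in control libraries. Prex2, an activator of the GTPase Rac, followed the same order, with 5.91 and 5.94 CPM in ultrasound libraries, against 2.50 and 2.49 CPM in piezoelectric libraries (1.25, adjusted p = 0.00209) and 29.8 and 29.9 CPM in nanosticker libraries. Lrrc15, a leucine-rich membrane protein, had 6.35 and 6.07 CPM in ultrasound libraries, against 1.67 and 2.55 CPM in piezoelectric libraries (1.55, adjusted p = 0.00225), and Apol9a, an apolipoprotein L gene, had 7.19 and 6.58 CPM in ultrasound libraries, against 2.56 and 2.81 CPM in piezoelectric libraries (1.36, adjusted p = 0.00152). A3galt2 (1.22, adjusted p = 0.00415), Ndnf (1.16, adjusted p = 0.00636), Gda (1.31, adjusted p = 0.0295) and, with divided reads, Dusp11 (1.26, adjusted p = 0.0152) completed the 15. The call of Gda ended without either ultrasound library, piezoelectric replicate 2 or either nanosticker library (adjusted p from 0.0528 to 0.205). The call of Ndnf ended without any 1 of the 4 libraries compared (adjusted p from 0.0563 to 0.104). The call of Dusp11 ended without either ultrasound library or piezoelectric replicate 2 (adjusted p from 0.101 to 0.231). The call of A3galt2 ended without ultrasound replicate 1 or piezoelectric replicate 2 (adjusted p from 0.0665 to 0.0803).

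Pnlip, which encodes pancreatic lipase, had 33.96 and 34.2 CPM in ultrasound libraries, against 72.6 and 76.9 CPM in piezoelectric libraries. The groups were more than 2-fold apart (log2 fold change -1.13 ± 0.08 (SE), adjusted p = 1.18e-05), while nanosticker libraries had 223 and 220.2 CPM and control libraries 85.3 and 73.98 CPM. Pnlip is on chromosome 1, plus strand, 279798187 to 279811372 (gene ID 25702). Papss2, an enzyme that makes the sulfate donor of proteoglycans, had 11.4 and 11.5 CPM in ultrasound libraries, against 21.7 and 22.9 CPM in piezoelectric libraries (log2 fold change -0.96 ± 0.11 (SE), adjusted p = 0.000252). Cyp1a1, the target of the aryl hydrocarbon receptor, had 5.84 and 5.62 CPM in ultrasound libraries, against 10.2 and 11.99 CPM in piezoelectric libraries (-0.95, adjusted p = 0.00257). Ano5, a membrane protein of the anoctamin family, had 3.15 and 3.07 CPM in ultrasound libraries, against 6.16 and 7.78 CPM in piezoelectric libraries (-1.16, adjusted p = 0.00386), and the matrix gene Tinagl1 had a log2 fold change of -0.93, adjusted p = 0.0186. Rpusd2, with divided reads, had -0.92, adjusted p = 0.0252. The call of Rpusd2 ended without any 1 ultrasound, piezoelectric or nanosticker library (adjusted p from 0.0518 to 0.284). The call of Tinagl1 ended without any 1 of the 4 libraries compared (adjusted p from 0.0741 to 0.221). The call of Ano5 ended without either ultrasound library or piezoelectric replicate 2 (adjusted p from 0.0619 to 0.0803). The call of Cyp1a1 ended without ultrasound replicate 2 or piezoelectric replicate 2 (adjusted p from 0.0521 to 0.0534).

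Some of the calls given above also depended on the tool or the scaling. DESeq2 did not call Birc3, Bmp6, Cacna1e, Ccl7, Ccn2, Cemip, Cntf, Col11a2, Col20a1, Dlx2, Dner, Dusp11, Fgfr3, Fosb, Fzd10, Gadd45b, Gfra1, Gfra2, Gldn, Igfbp2, Igfbp3, Lif, Nog, Ogn, Phlda1, Rpusd2, Slc40a1, Sostdc1, Spred3, Stmn2, Tinagl1 and Tnfaip2. By limma-voom the calls of Col11a2, Fosb, Gadd45b, Gfra2 and Sostdc1 ended. Those of Gadd45b and Stmn2 ended with either other scaling, those of Cacna1e and Gda with the length trend removed, and that of Gda also with no filter on low counts.

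The levels in control libraries were set beside the 502 calls as a description. For 280 of the 305 higher genes and 180 of the 197 lower genes the control mean lay nearer to the piezoelectric than to the ultrasound mean, on log2(CPM + 0.5). Over all 14336 genes this was so for 8690. The control mean lay below both groups for 170 higher genes, between them for 133 and above both for 2. For the lower genes it lay above both for 105, between them for 89 and below both for 3. Ttr, Postn, Cemip and Ccn2 were among the 17 lower genes whose control mean lay nearer to ultrasound, and Tnfaip6, Tnfaip2, Plk2 and Phlda1 among the 25 such higher genes.

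Nanosticker libraries lay nearer to ultrasound than to piezoelectric ones for 210 of the 305 higher genes (68.9%) and for 102 of the 197 lower genes (51.8%), against 54.0% of all genes tested. Ccl2, Lcn2 and Spp1 were near or above the ultrasound level there, with 10.6 and 10.4, 30.8 and 32.4 and 63.7 and 65.3 CPM. Cxcl10 and Apol9a were not, with 2.65 and 2.29 and 2.12 and 2.02 CPM in nanosticker libraries. The myelin genes Mbp, Mag and Mobp, higher in ultrasound than in piezoelectric libraries, were higher still in nanosticker libraries. Sox10, Bcas1 and Enpp6 were lower in ultrasound than in piezoelectric libraries. In nanosticker libraries these 3 had 458 and 459.8, 1768 and 1759.7 and 158 and 147 CPM, above the other 6 libraries.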

How the data were processed

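The 8 libraries, 2 per group, hold messenger RNA of rat neural stem cells from day 5, and groups come from the sample labels. Per the file headers, the table that the authors deposited gives for each of 18374 genes an estimated count, a TPM and an FPKM in every library. Of the deposited expected counts 10.5% are not whole (tolerance 0.005), in 2627 genes, here called divided reads. Deposited TPM served for marker levels and deposited FPKM only for transcript lengths. The submitters' processing notes name Rnor 6.0. The sources used here give no aligner, counting tool or strand setting, and overlapping or near-identical genes may trade reads. The authors' correlation matrix and comparisons were not used.

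Rounded expected counts were analysed with edgeR 4.0.16 in R 4.3.3. After filterByExpr (14336 genes) and TMM scaling, a robust quasi-likelihood model with group means was fitted to all 8 libraries, leaving 4 residual degrees of freedom; the biological coefficient of variation was 7.09%. Tests were two-sided and adjusted by Benjamini-Hochberg over all tested genes (threshold 0.05). The SE is the absolute log2 fold change over the root of F, and intervals cover 95%. In simulated counts for these 14336 genes, 40 of 67 genes changed 1.5-fold, 57 of 67 changed 2-fold and 63 of 66 changed 4-fold were called, beside 16 unchanged ones. There every group but ultrasound had the same mean, so differences of the nanosticker group and trends along transcript length were absent. The simulation therefore does not give the rate of false calls in the real libraries.

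The comparison and the 45 lists (860 symbols, 851 matched, 849 of them by symbol) were chosen with earlier results of these data known, so lists carry counts and medians but no test. The naming rule took called genes averaging 5 CPM or more in ultrasound or piezoelectric libraries, whose libraries did not overlap and whose symbol was no placeholder. It named the 15 largest positive and 15 largest negative log2 fold changes, called increases and decreases above. It then took up to 6 called members of each list by adjusted p, and 20 genes in any case. Some list members that the rule named are not reported here, though list counts include them. Members outside the rule were chosen after their values were seen. Alternatives were DESeq2 1.42.0, limma 3.58.1 voom, other scalings and filters (the stricter asked for a mean count of 20 and 1 CPM in 2 libraries), a replicate block, fewer libraries, whole-count genes, and lowess removal (span 0.3) of length trends. Each library was also left out in turn, and its lone partner was then assumed to vary like the other groups.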

Additional observations from a re-analysis of the deposited data

How the results depend on the processing

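Each of the 502 calls that remained called under an alternative kept its direction. Counts stayed within 1.5 times of the 502 with no filter (569), a stricter filter (494), whole-count genes (566), limma-voom (506), scaling by library size (514) and relative log expression factors (512). DESeq2 called 335 genes, 200 higher and 135 lower. The fit of only the 4 libraries called 1214 (658 higher, 556 lower), the fit without the control libraries 1207 (668 and 539), and the removal of the length trend 846 (487 and 359), of which 498, 501 and 490 were among the 502. With 1 library left out in turn, the counts ran from 151 to 1202 in all, from 110 to 662 higher and from 41 to 540 lower. The share of calls that were higher was 60.8% as reported and ran from 54.2% in the fit of only the 4 libraries to 73.7% without ultrasound replicate 1. The replicate block gave 380 calls (243 higher, 137 lower). The labels do not say whether replicate numbers pair the samples. Deviations of the first ultrasound and first piezoelectric libraries correlate at 0.00563 over genes. Those of the first nanosticker library correlate at 0.135 with the first piezoelectric and at -0.136 with the first ultrasound library. Such correlations cannot show how the samples were prepared, so pairing is left undecided. The block is given only here. Of 124 named calls, 57 held in every one of the 19 alternatives that gave a value. DESeq2 ended 33 (adjusted p from 0.0511 to 0.366), limma-voom 5, the block 23, and leaving out 1 of the 4 libraries 40 to 60. Of the named genes that were not called, 8 were called in the fit of only the 4 libraries and 7 without the control libraries. Missing calls of named genes therefore also depend on the libraries fitted. The causes were not tested. Depth limits genes of a few counts per library, such as Bdnf, Acan and Slc40a1, and 2 libraries a group leave small differences unresolved.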
